A study of Chlamydomonas reinhardtii with 9 samples.

Results

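The fermentation enzymes of pyruvate and acetate considered here are the products of 8 genes of the unicellular green alga Chlamydomonas reinhardtii. They were chosen by symbol from the 17609 gene models of the deposited expression table: PFL1, PFR1, PAT1, PAT2, ACK1, ACK2, ADH1 and LDH1. All 8 symbols were found, each for a single gene model. Polyadenylated RNA was sequenced from 3 strains, with 3 separate cultures of each. Strain B6 carries the wild-type CEHC1 gene (wild type), strain B6-F carries the cehc1-1 mutation (mutant), and strain B6-F_resc was made from the mutant by adding back wild-type CEHC1 (rescued strain). Each genotype is represented by a single strain, so genotype and strain cannot be told apart. Every culture was aerated in acetate-containing TAP medium with daily periods of 14 h light and 10 h dark, and RNA was taken 6 h after the light came on. The labels name no culture grown without oxygen.

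Fermentation lets this alga regenerate oxidised cofactors and make ATP when respiration lacks oxygen. Pyruvate is split to acetyl-CoA either with release of formate, by pyruvate formate lyase (PFL1), or with transfer of electrons to ferredoxin, by pyruvate-ferredoxin oxidoreductase (PFR1). Phosphotransacetylase (PAT1, PAT2) turns acetyl-CoA into acetyl phosphate, and acetate kinase (ACK1, ACK2) turns that into acetate and ATP. In Chlamydomonas, PAT2 and ACK1 are known as the chloroplast pair and PAT1 and ACK2 as the mitochondrial pair. Acetyl-CoA can instead be reduced to ethanol by the bifunctional aldehyde and alcohol dehydrogenase ADH1, and pyruvate can be reduced to lactate by lactate dehydrogenase (LDH1).

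Expression is given as FPKM, fragments scaled to transcript length and library size, as deposited by the authors. A difference between strains is on the log2(FPKM + 1) scale, with its standard error (SE), and understates the change of genes with low FPKM. Adjusted p-values are from limma, with the Benjamini-Hochberg method over the 11360 genes whose mean was at least 1 FPKM. Of the 8 genes, 7 were tested in this way, and each of them was above that level in all 3 strains. PFR1 fell below it, and its differences are from a fit with no minimum. RNA came from whole cultures, so more expressing cells and more transcript per cell cannot be told apart.

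In the aerated mutant cultures PFL1, PAT1, PAT2, ACK1 and ADH1 rose to 1.30 to 1.95 times the wild-type mean, and the scarce PFR1 transcript rose 13.7-fold. These folds are on the deposited scale. Taken relative to each library's sum of FPKM, they were 2.20 (ADH1) to 3.29 (PAT2), and 23.3 for PFR1. In the rescued strain these 6 genes were lower than in mutant cells again. The values of LDH1 and ACK2 were lower in mutant cells on the deposited scale, and higher once libraries were brought to equal sums of FPKM. The ratio of ACK1 to ACK2 turned over, from 0.626 in wild-type cells to 1.35 in mutant cells.

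PFL1, the formate-releasing enzyme, was the most abundant of the 8 transcripts in each strain. It had 119, 114 and 115 FPKM in wild-type replicates 1, 2 and 3, 183, 197 and 198 in mutant cells, and 124, 106 and 105 in rescued cells. All mutant libraries lay above all others, while wild-type and rescued libraries overlapped. Mutant exceeded wild type by 0.73 (SE 0.08, adjusted p 2.26e-05, limma), by 1.36 after quantile normalization and by 1.48 with equal sums of FPKM. The rescued strain was lower than the mutant with a difference of -0.78 (SE 0.08, adjusted p 1.41e-05). Between rescued strain and wild type the difference was -0.06, with a 95% interval from -0.23 to 0.11.

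PFR1, the ferredoxin-linked enzyme, was the least abundant member. Its FPKM were 0.0908, 0.0918 and 0.118 in wild-type cells, 1.55, 1.45 and 1.11 in mutant cells, and 0.344, 0.293 and 0.247 in rescued cells. The 3 strains did not overlap, and the rescued libraries lay between the other 2 strains. Mutant against wild type gave 1.10 (SE 0.07, adjusted p 7.30e-06, limma without a minimum FPKM), and rescued strain and mutant by -0.87 (adjusted p 1.47e-05). The rescued strain was above the wild type by 0.23 (adjusted p 0.0292). That last call was lost with a pseudocount of 5 (0.05, adjusted p 0.106), after rescaling to equal sums of FPKM (adjusted p 0.0964), and without any 1 of the wild-type libraries or of rescued replicates 1 and 2 (adjusted p up to 0.0897). The size depends on the pseudocount at this level, with 2.87 for mutant against wild type at a pseudocount of 0.1 and 0.32 at 5.

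The ratio of PFL1 to PFR1 transcript, chosen after the values were seen, was 1176 ± 176 (SD, n = 3) in wild-type cells, 144 ± 31.1 in mutant cells and 382 ± 38.2 in rescued cells. PFL1 thus remained far above PFR1 in every library, while the gap narrowed in mutant cells.

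**Figure D1:**
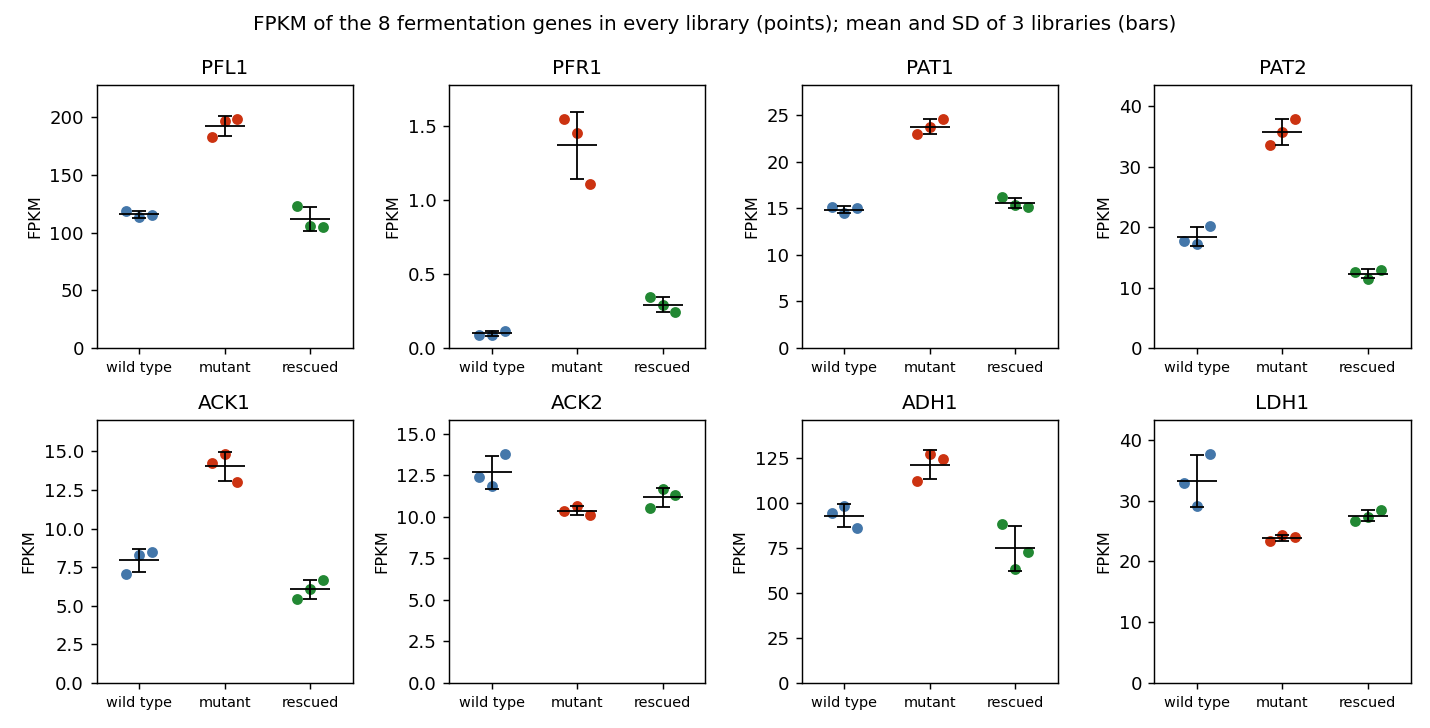
FPKM (vertical axes, linear and starting at 0) of the 8 genes in wild-type, mutant and rescued libraries; points are single libraries and bars give the mean and SD of 3. Mutant libraries stand above the rest in 6 panels, from PFL1 with 183 to 198 FPKM to PFR1 with 1.11 to 1.55, but not in those of ACK2 and LDH1.

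PAT2, the phosphotransacetylase of the chloroplast pair, had 17.7, 17.3 and 20.2 FPKM in wild-type cells, 33.6, 35.7 and 37.8 in mutant cells, and 12.6, 11.4 and 12.9 in rescued cells. The strains did not overlap, and here the rescued libraries lay below the wild type. Its rise in mutant cells was 0.92 (SE 0.08, adjusted p 8.62e-06, limma), and its fall from mutant to rescued strain was -1.46 (SE 0.08, adjusted p 4.22e-07). The rescued strain was lower than the wild type by a difference of -0.54 (SE 0.08, adjusted p 9.39e-04), which held under all 21 alternatives.

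ACK1, the acetate kinase of the same pair, followed PAT2. It had 7.05, 8.27 and 8.47 FPKM in wild-type cells, 14.2, 14.8 and 13.0 in mutant cells, and 5.44, 6.09 and 6.66 in rescued cells. Again no strain overlapped with another, and the rescued libraries were lowest. The difference was 0.75 (SE 0.09, adjusted p 5.84e-05, limma) for mutant against wild type and -1.09 (SE 0.09, adjusted p 5.28e-06) for rescued strain against mutant. For rescued strain against wild type it was -0.34 (adjusted p 0.0159), a call lost after rescaling to equal sums of FPKM (adjusted p 0.108) and without wild-type replicate 3 (0.0558) or rescued replicate 1 (0.0543).

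PAT1, the mitochondrial phosphotransacetylase, had 15.1, 14.5 and 15.0 FPKM in wild-type cells, 23.0, 23.7 and 24.5 in mutant cells, and 16.2, 15.3 and 15.1 in rescued cells. Wild-type and rescued libraries lay close together, with no overlap but a gap smaller than either strain's spread, and all mutant libraries lay above them. The mutant was higher by 0.64 (SE 0.06, adjusted p 1.47e-05, limma), and the rescued strain differed from the mutant by -0.58 (adjusted p 2.90e-05). Rescued strain and wild type differed by 0.06 with a 95% interval from -0.08 to 0.20. Quantile normalization made that 0.18 (adjusted p 0.0438).

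ACK2, the mitochondrial acetate kinase, had 12.4, 11.9 and 13.8 FPKM in wild-type cells, 10.4, 10.6 and 10.1 in mutant cells, and 10.5, 11.7 and 11.3 in rescued cells. The mutant libraries lay below the wild type and overlapped with the rescued strain. On the deposited scale mutant against wild type gave -0.27 (SE 0.07, adjusted p 0.00937, limma), which became -0.01 (adjusted p 0.866) after quantile normalization and 0.43 (adjusted p 3.61e-04), the opposite direction, with equal sums of FPKM. For rescued strain against mutant the difference was 0.10, with a 95% interval from -0.07 to 0.26.

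ADH1, which forms ethanol, was second in abundance to PFL1. It had 94.7, 98.4 and 86.1 FPKM in wild-type cells, 112, 127 and 125 in mutant cells, and 88.5, 63.5 and 72.8 in rescued cells. The mutant lay above both other strains, which overlapped through rescued replicate 1. The rise in mutant cells was 0.38 (SE 0.11, adjusted p 0.0128, limma). It was 1.00 after quantile normalization and 1.13 with equal sums of FPKM. Rescued strain and mutant differed by -0.70 (SE 0.11, adjusted p 4.53e-04). The difference of -0.32 between rescued strain and wild type had an adjusted p of 0.0454. It kept its side of the threshold in 7 of 21 alternatives, and its adjusted p reached 0.371 after quantile normalization and 0.152 without rescued replicate 2.

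LDH1, which forms lactate, had 32.9, 29.1 and 37.7 FPKM in wild-type cells, 23.4, 24.4 and 23.9 in mutant cells, and 26.7, 27.3 and 28.5 in rescued cells. Wild type was highest, mutant lowest, and no strain overlapped with another. Mutant against wild type gave -0.45 (SE 0.09, adjusted p 0.00110, limma) on the deposited scale, by -0.06 (adjusted p 0.427) after quantile normalization, and by 0.28 (adjusted p 0.00553), the opposite direction, with equal sums of FPKM. Rescued strain and mutant differed by 0.19 (95% interval from -0.001 to 0.39, adjusted p 0.0814). The difference of -0.26 between rescued strain and wild type (adjusted p 0.0397) kept its side of the threshold in 9 of 21 alternatives.

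**Figure D2:**
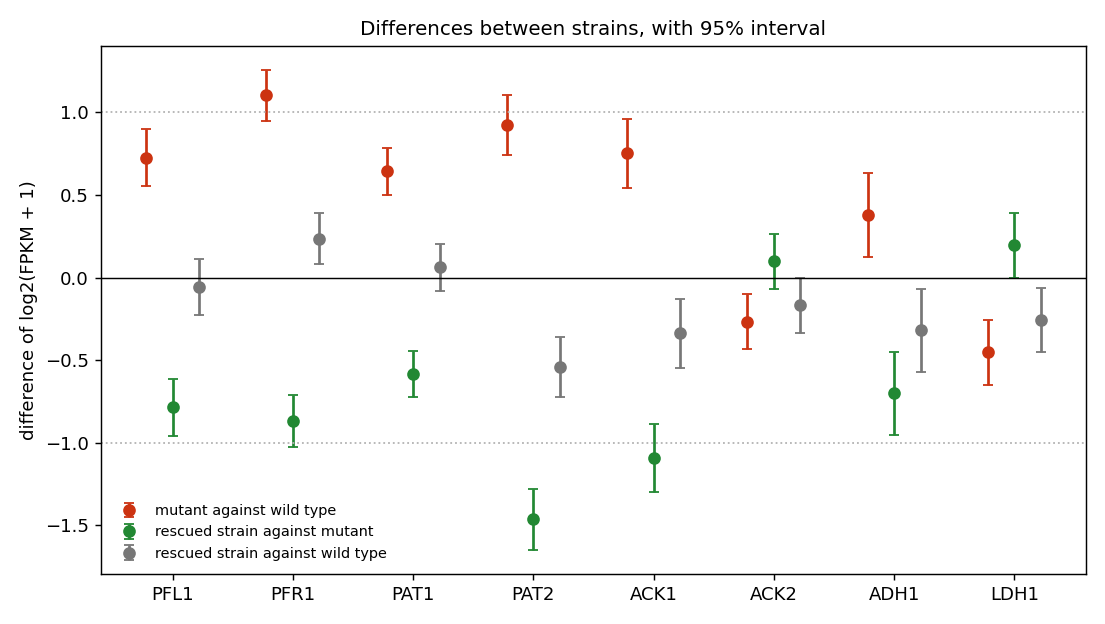
Difference of log2(FPKM + 1) between strains for each gene, with the 95% interval; PFR1 is from the fit with no minimum FPKM, and dotted lines mark a difference of 1 in either direction. Mutant against wild type runs from -0.45 for LDH1 to 1.10 for PFR1 on the deposited scale, and LDH1 and ACK2 turn positive with equal sums of FPKM.

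Counted over the 7 genes tested, 5 were higher in mutant than wild-type cultures at an adjusted p under 0.05, against 25.8% of all genes tested. The other 2 were lower, against 40.5% of all genes. These shares depend on the level of expression. Among genes averaging at least 5 FPKM, which include all 7, 13.1% were higher and 62.5% lower. With no minimum FPKM, as for PFR1, the shares were 31.2% and 29.1%. In either direction 66.2% of all genes passed, so passing this test is common in these data. The 5 higher genes passed under every scaling, whereas the count of lower genes was 1 with medians aligned over the tested genes and 0 after quantile normalization, and with equal sums of FPKM all 7 were higher. With equal sums 69.9% of all genes were higher and 6.01% lower. The median difference of the 7 genes was 0.64, while that of all genes was -0.13. No member tested also differed by at least 1, a size reached by 9.4% of all genes, although 7 of 7 had an unadjusted p under 0.05 (limma). This count was 1 with no minimum FPKM (PFR1) or with medians aligned over the tested genes (PAT2), 3 after quantile normalization, and 5 with equal sums of FPKM. The share of all genes past this size was 7.09%, 8.89%, 6.43% and 18.3% in these 4 settings.

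Between rescued strain and mutant, 5 of the 7 were lower in rescued cells, against 25% of all genes tested. None was higher, against 33.1%. Among genes averaging at least 5 FPKM, which include all 7, 18.1% were lower and 48.5% higher. In either direction 58.1% of all genes passed. With equal sums of FPKM all 7 were lower in rescued cells, where 69.0% of all genes were lower and 8.49% higher. As deposited, PAT2 and ACK1 were lower by at least 1, a size and direction reached by 3.77% of all genes. The count of 2 became 1 with a pseudocount of 5, 4 after quantile normalization and 5 with equal sums of FPKM, where 1.45%, 4.20% and 13.5% of all genes were lower by that size. Both comparisons use the same mutant libraries and are therefore not independent.

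Between rescued strain and wild type, 4 of the 7 (PAT2, ACK1, ADH1 and LDH1) were lower in rescued cells, against 21.8% of all genes. None was higher, against 18.5% (40.3% in either direction). Among genes averaging at least 5 FPKM, which include all 7, 32.5% were lower and 14.1% higher. None of the 7 differed by 1 or more, against 2.31% of all genes, and 5 had an unadjusted p under 0.05 (limma). ADH1 (adjusted p 0.0454, limma) and LDH1 (0.0397) lay close to the threshold. Mutant libraries enter this comparison only through the shared estimate of the spread. The count of 4 was not stable. It was 2 without any 1 of wild-type replicates 1 and 3, the 3 mutant libraries or the 3 rescued libraries, 2 in a fit of the 2 strains alone or with medians aligned over the tested genes, and 1 with equal sums of FPKM.

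Counting all 8 genes by whether the 3 libraries of each strain overlapped, 6 were wholly higher in mutant cells than in wild-type cells and 2 wholly lower, against 28% and 43.5% of all genes tested. From mutant to rescued strain 6 were wholly lower (background 29.3%), LDH1 was wholly higher (37.2%) and ACK2 overlapped. From wild type to rescued strain PFR1 and PAT1 were wholly higher (22.2%), PAT2, ACK1, ACK2 and LDH1 wholly lower (26.3%), and PFL1 and ADH1 overlapped. These background shares cover the genes tested, which leave out PFR1, and were not computed at the members' level of expression.

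The scale matters because the strains differed in the sum of all FPKM, which was 970073 to 1108532 in wild-type libraries, 592929 to 645234 in mutant cells and 888153 to 1002223 in rescued cells. Bringing the sums to 1 level moved the median difference of all genes between mutant and wild type from -0.13 to 0.48. Relative to that median, LDH1 and ACK2 were lower as deposited, and the other 5 genes tested stayed higher under every scaling. After quantile normalization LDH1 (-0.06, SE 0.07) lay at the median of all genes (-0.06), and ACK2 (-0.01) lay above it. With equal sums LDH1 (0.28) stayed below the median of 0.48, while ACK2 (0.43, SE 0.07) lay within its SE of it. The cause of the unequal sums was not tested.

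Ranks within a library do not depend on its scale. PAT2 stood at percentiles 84.9 to 86.2 of all gene models in wild-type cells, 92.6 to 93.2 in mutant cells and 80.5 to 82.4 in rescued cells. PFL1 stood at 96.1 to 96.3, 98.0 to 98.1 and 96.2 to 96.8 in the same order, and PFR1 at 19.3 to 21.2, 35.3 to 41.0 and 23.9 to 25.0. For LDH1 the ranges overlapped, with 89.9 to 91.0 in wild-type cells and 90.01 to 90.3 in mutant cells. Those of ACK2 overlapped as well, with 80.5 to 81.9 and 80.4 to 81.4.

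**Figure D3:**
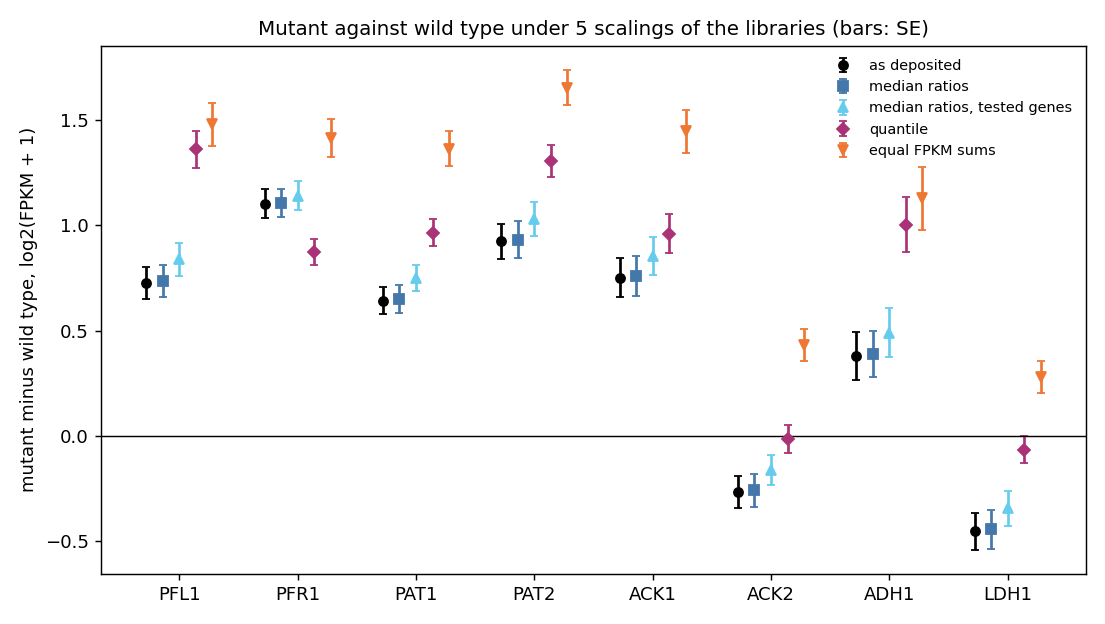
Difference of log2(FPKM + 1) between mutant and wild type for each gene under 5 scalings of the libraries; bars are SE, and PFR1 is from fits with no minimum FPKM. Points of the 6 raised genes stay above 0 under each scaling, from 0.38 for ADH1 as deposited to 1.65 for PAT2 with equal sums, while ACK2 and LDH1 lie at -0.27 and -0.45 as deposited and at 0.43 and 0.28 with equal sums.

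Ratios of 2 genes within a library are free of the scale between libraries and show how the paralogs diverged. ACK1 to ACK2 was 0.569, 0.696 and 0.614 in wild-type cells, 1.37, 1.39 and 1.29 in mutant cells, and 0.517, 0.523 and 0.587 in rescued cells. The chloroplast kinase transcript was thus below the mitochondrial one in all 6 wild-type and rescued libraries and above it in all 3 mutant libraries. On the log2 scale the ratio differed by 1.11 (SE 0.09) between mutant and wild type and by -1.32 (SE 0.07) between rescued strain and mutant. Each had a two-sided p of 0.1 in an exact permutation test, the smallest that 3 against 3 libraries allow, and 0.12 after adjustment over 6 such tests. Between rescued strain and wild type the ratio differed by -0.21 (SE 0.10, exact permutation p 0.2), and the ranges overlapped.

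PAT2 to PAT1 was 1.17, 1.20 and 1.34 in wild-type cells, 1.46, 1.51 and 1.54 in mutant cells, and 0.780, 0.745 and 0.854 in rescued cells. The shift between mutant and wild type, 0.28 on the log2 scale (SE 0.07), was smaller than that of the kinases. From mutant to rescued strain it was -0.93 (SE 0.06), and from wild type to rescued strain -0.64 (SE 0.08), so the order of the phosphotransacetylases was reversed in rescued cells alone. All 3 differences had an exact two-sided permutation p of 0.1 (adjusted 0.12), and no strain overlapped with another. The sources used here do not say how reads shared by paralogs were counted.

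Grouped by compartment, a choice made after the values were seen, PAT2 and ACK1 kept a similar ratio in all strains. It was 2.32 ± 0.213 (SD, n = 3) in wild-type cells, 2.56 ± 0.300 in mutant cells and 2.04 ± 0.238 in rescued cells, with ranges that overlapped between wild type and each of the others but not between mutant and rescued strain. PAT1 to ACK2 went from 1.17 ± 0.0744 to 2.29 ± 0.121 in mutant cells and was 1.39 ± 0.123 in rescued cells. The mutant libraries did not overlap with either of the other strains in this ratio.

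**Figure D4:**
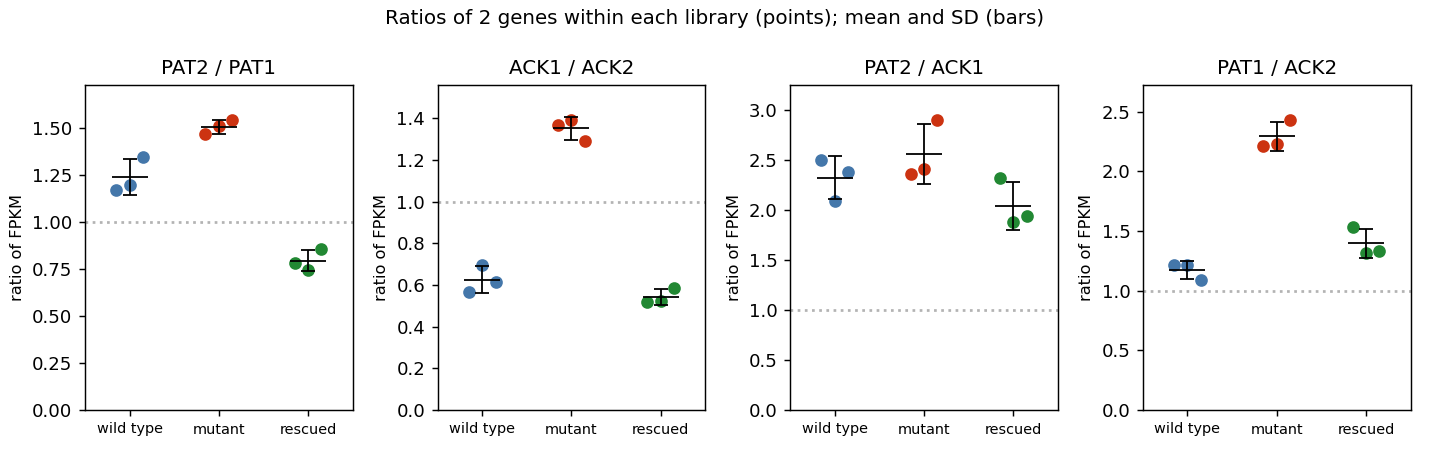
Ratio of the FPKM of 2 genes within each library (vertical axes, linear from 0) by strain; points are libraries, bars the mean and SD of 3, and the dotted line marks a ratio of 1. ACK1 to ACK2 lies above 1 in mutant cells alone (1.29 to 1.39), PAT2 to PAT1 lies below 1 in rescued cells alone, and PAT2 to ACK1 overlaps between wild type and mutant.

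The order of the levels changed little between strains. In the wild type it ran PFL1, ADH1, LDH1, PAT2, PAT1, ACK2, ACK1 and PFR1, and no neighbours overlapped. In the mutant PAT2 (35.7 ± 2.10 FPKM) stood above LDH1 (23.9 ± 0.495), which could not be separated from PAT1 (23.7 ± 0.779), and ACK1 stood above ACK2. In the rescued strain PAT1 stood above PAT2, whose range overlapped with that of ACK2. Summed over the 8 genes, FPKM was 296 ± 2.83 in wild-type cells, 423 ± 19.1 in mutant cells and 259 ± 21.8 in rescued cells.

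Across the 9 libraries, which fall into 3 strains, PFL1, PAT1, PAT2, ACK1 and ADH1 were positively related to one another, with Pearson's r of log2(FPKM + 1) from 0.79 (PAT1 with ADH1) to 0.98 (PFL1 with PAT1). PAT2 with ACK1 had 0.97, and LDH1 with ACK2 had 0.96. These values mainly restate the strain means. Among all genes with a symbol, those most like PFL1 in pattern were MMP3 and PFH3 (r 0.99 each), and those most like PAT1 were GOX7 (r 0.996) and the ferredoxin gene FDX5 (0.993). FDX5 went from 7.57 to 1756 FPKM, so a high r does not mean a change of similar size. For PAT2 they were CYP51G1 (0.994), a sterol demethylase, and NTR2 (0.992). For ACK1 they were FBB15 (0.979) and ADI1 (0.977), and for ADH1 VTC2 (0.976), an enzyme of ascorbate synthesis, and FAP61 (0.970). LDH1 was most like CRB1 (0.986) and MRPS4 (0.978), and ACK2 most like CGL87 (0.981) and EIF5B3 (0.971). Such likeness is common, since 27 genes (for ADH1) to 280 genes (for PAT1) had an r over 0.95.

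By gene order in the RefSeq table (assembly Chlamydomonas_reinhardtii_v5.5), which held all 8 members, ACK1 and PAT2 are next to each other on chromosome 9, and the hydrogenase gene HYDA2 follows PAT2. A further gene model that overlaps PAT2 lies between them in that table and was not used here. HYDA2 had 2.60 ± 0.439 FPKM in wild-type cells, 10.4 ± 1.78 in mutant cells and 1.31 ± 0.332 in rescued cells. It shared with PAT2 and ACK1 both the rise in mutant cells (1.66, adjusted p 7.35e-06, limma) and a rescued level below the wild type (-0.64, adjusted p 0.00605). Both also held for the hydrogenase gene HYDA1 (Cre03.g199800_4532), which is not among these neighbours (2.98, adjusted p 1.60e-08, and -0.52, adjusted p 0.00362, limma). On the far side of ACK1, Cre09.g396750_4532 was scarce, with 0.0338 FPKM in wild-type cells, 0.271 in mutant cells and 0.0358 in rescued cells. The next gene, Cre09.g396800_4532, differed by -0.82 (adjusted p 1.45e-05) between mutant and wild type.

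The other genes of the pathway were taken from 5 lists with 52 symbols, of which 48 were matched and 44 tested. All 5 genes of hydrogen production were higher in mutant cells, against 25.8% of all genes, and lower again in rescued cells under every scaling, with median differences of 3.59 and -3.50 as deposited. They are the hydrogenases HYDA1 and HYDA2, which take electrons from ferredoxin, the hydrogenase maturation factors HYDEF1 and HYDG1, and the ferredoxin FDX5. The smallest of their differences was that of HYDA2, at 1.66 as deposited and 2.30 with equal sums of FPKM. The largest among the 7 fermentation genes tested was that of PAT2, at 0.92 as deposited and 1.65 with equal sums. PFR1, from the fit with no minimum, is not part of that count.

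The pyruvate dehydrogenase complex, which makes acetyl-CoA from pyruvate in respiring or lipid-making cells, was listed with pyruvate decarboxylase. Of these 10 genes 8 were lower and 1 (DLD2) higher in mutant cells as deposited, with a median of -0.66. Among all genes 40.5% were lower and 25.8% higher. Among genes averaging at least 5 FPKM, which include all 10, the shares were 62.5% and 13.1%. For the 10 genes, quantile normalization gave 6 lower and 3 higher (all genes 32.9% and 26.0%). Equal sums of FPKM gave 2 lower and 3 higher (6.01% and 69.9%). DLA2, an acetyltransferase subunit, had 294 ± 33.4 FPKM in wild-type cells, 125 ± 9.65 in mutant cells and 384 ± 40.8 in rescued cells. Its difference of -1.22 (SE 0.11, adjusted p 7.86e-06, limma) was -0.64 and -0.47 under those scalings, past the test in both. PDH2 went from 189 ± 9.15 to 93.2 ± 7.82 FPKM and was at 248 ± 28.5 in rescued cells, a difference of -1.02 (adjusted p 1.26e-05) that also kept its direction (-0.44 and -0.27). PDC2 had 155 ± 10.3, 87.9 ± 6.09 and 199 ± 24.1 FPKM, and its difference of -0.81 was no longer past the test with equal sums (-0.06, adjusted p 0.429). DLA2, PDH2 and PDC2 were higher in rescued cells than in mutant cells under all 5 scalings.

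Of 13 tested genes that supply pyruvate or phosphoenolpyruvate, 2 were higher and 5 lower in mutant cells as deposited, 7 higher and 2 lower after quantile normalization, and 11 higher and 1 lower with equal sums. The shares of all genes were those given for the preceding list, and the list median of -0.03 as deposited and 0.67 with equal sums lay above the medians of all genes (-0.13 and 0.48). The pyruvate kinases went in both directions. PYK1 had 60.0 ± 5.41 FPKM in wild-type cells, 26.4 ± 0.237 in mutant cells and 74.2 ± 6.76 in rescued cells, and it was lower in mutant cells under every scaling (-1.15 as deposited, -0.42 with equal sums). PYK5 had 42.8 ± 2.60, 23.0 ± 0.287 and 64.9 ± 6.58 FPKM, a difference of -0.86 that became -0.13 (adjusted p 0.112) with equal sums. PYK4, named after its values were seen, had 7.37 ± 1.64, 14.7 ± 0.959 and 10.8 ± 2.24 FPKM. It was higher in mutant cells under every scaling (0.92 as deposited, adjusted p 4.48e-04, limma, and 1.61 with equal sums). As deposited, PYK4 was lower in rescued than in mutant cells (-0.42, adjusted p 0.0398) but still above the wild type (0.50, adjusted p 0.0279, limma). MME3, a malic enzyme that releases pyruvate from malate, had 6.21 ± 0.191, 12.4 ± 0.753 and 5.66 ± 0.682 FPKM, and it was likewise higher in mutant cells under every scaling (0.90 as deposited, adjusted p 1.32e-05).

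None of the 3 acetyl-CoA synthetase genes, which take acetate up into metabolism, was higher in mutant cells as deposited, and 2 were lower (median -0.49). Among all genes 25.8% were higher and 40.5% lower, and among those averaging at least 5 FPKM, which include these 3, 13.1% and 62.5%. After quantile normalization 1 was higher and none lower (all genes 26.0% and 32.9%), and with equal sums all 3 were higher (all genes 69.9%). With equal sums, which raise the mutant values of all genes by 1 factor per library, the list median was 0.26, still below that of all genes (0.48). Of 13 tested genes for other fermentative or redox outlets, 11 were lower and none higher as deposited (all genes 40.5% and 25.8%). Among genes averaging at least 5 FPKM, which include all of the 13 but FUM2, the shares were 62.5% and 13.1%. After quantile normalization 5 of the 13 were lower and 2 higher (32.9% and 26.0% of all genes). With equal sums none of them was lower and 7 were higher (6.01% and 69.9%). Their list median was then 0.15, against 0.48 for all genes. FUM1, a fumarase, had 56.7 ± 8.97 FPKM in wild-type cells, 49.4 ± 3.01 in mutant cells and 20.8 ± 2.14 in rescued cells, and was lower in rescued cells than in either of the others under every scaling (as deposited -1.21 against mutant and -1.40 against wild type). PFLA1 and PDC3, named after their values were seen, bear on the same branch point. PFLA1, listed as the activator of pyruvate formate lyase, had 15.6 ± 1.44, 15.5 ± 0.360 and 13.2 ± 1.40 FPKM. Mutant against wild type gave -0.01 (adjusted p 0.927) as deposited and 0.70 (adjusted p 1.93e-05) with equal sums. PDC3, the pyruvate decarboxylase on another route to ethanol, had 68.0 ± 10.2, 51.0 ± 3.34 and 46.1 ± 8.82 FPKM, with a difference of -0.40 (adjusted p 0.0315) that turned to 0.35 (adjusted p 0.0705) with equal sums.

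**Figure D5:**
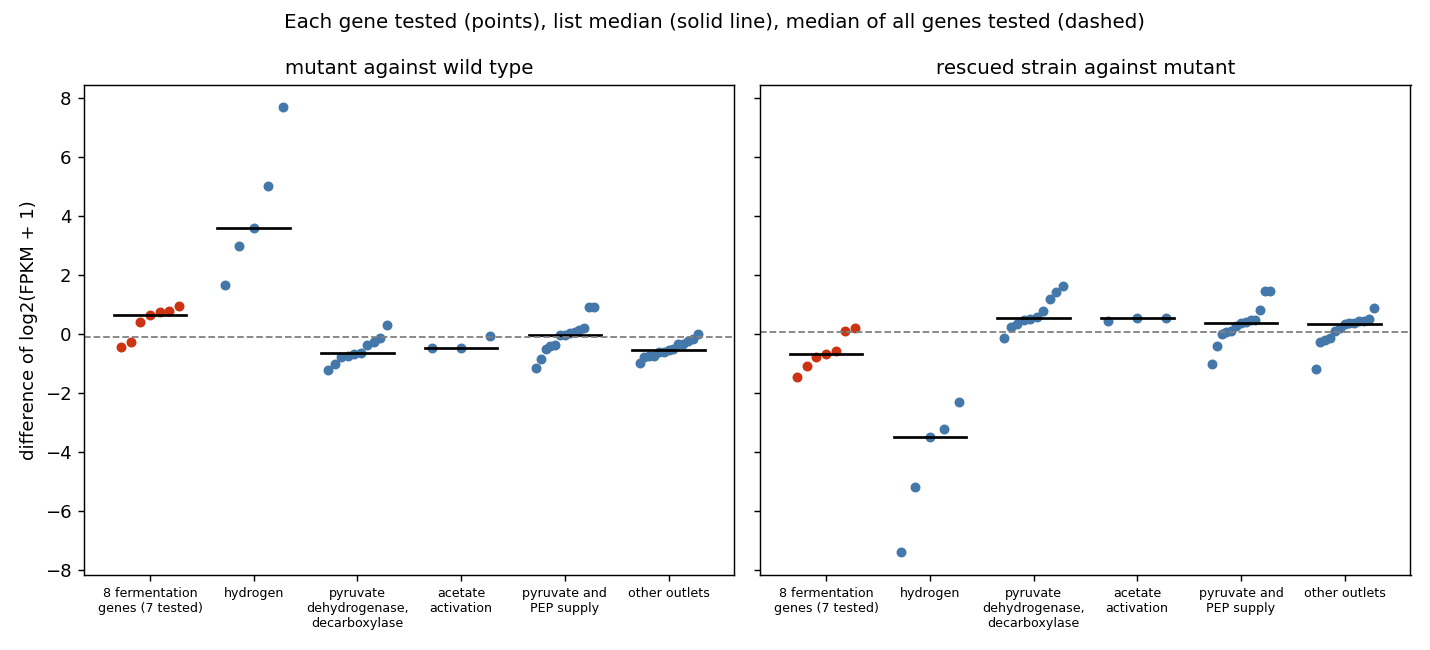
Difference of log2(FPKM + 1) as deposited, for mutant against wild type (left) and rescued strain against mutant (right), of the 7 tested fermentation genes and of 5 lists of other pathway genes; solid lines are list medians and the dashed line is the median of all genes tested. The fermentation genes (median 0.64 in the left panel) lie between the hydrogen genes (3.59) and the other lists, of which those for pyruvate dehydrogenase, acetate activation and other outlets have medians of -0.66 to -0.49, and with equal sums of FPKM of 0.07 to 0.26, below the 0.48 of all genes; acetate activation alone of these 3 is above all genes after quantile normalization (0.14 against -0.06).

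The mutated gene CEHC1 (Cre01.g005900_4532) was at 7.07 to 9.77 FPKM in wild-type cells, 16.2 to 18.0 in mutant cells and 25.4 to 27.9 in rescued cells. What the mutation changes is not stated in the labels, and these levels therefore do not check them. Genes listed at 0 numbered 2426 to 2547 per library in wild-type cells, 1904 to 2005 in mutant cells and 2383 to 2521 in rescued cells. Read numbers are not stated in the sources, which matters most for PFR1, and the part of sequencing depth in its values was not tested. No library of the 9 was left out.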

How the data were processed

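The authors deposited FPKM per library and 1 FPKM value per strain for 17609 gene models, with symbols for 4326. STAR 2.7.10b and Cuffdiff 2.0.2 are named in the submitters' processing notes, without their roles; a genome build was not given in the sources used here. Reads were paired, of 125 bp, from RNA with an integrity number above 8, per the labels. FPKM are not counts, so log2(FPKM + 1) values were fitted with limma 3.58.1 in R 4.3.3 (group means over all 9 libraries, 6 residual degrees of freedom, variance trend). Testing covered the 11360 genes averaging 1 FPKM or more. The authors' deposited strain values were not tested. For genes below 0.15 FPKM, steps between libraries gave no clear depth, with 17.3% to 31.4% of them within 5% of the most frequent ratio.

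The members and lists were chosen with earlier results of these data known. Named genes were the 8 members, list genes past a log2 difference of 1 in either mutant comparison (at most 6 per list), and the 2 symbol-bearing genes of highest r per tested member. Tested on simulated data for mutant against wild type (11360 genes, 200 changed by a log2 of 2), the fit recovered 100%. That change is larger than the difference of any member tested in this comparison, and recovery at the members' sizes was not tested. Of 11160 unchanged genes 9 had an adjusted p under 0.05, and 2 of them also a difference of at least 1. Exact permutation tests used scipy 1.17.1 and figures matplotlib 3.10.9. Alternatives were other pseudocounts (0.1, 5), minima (none, 5 FPKM), scalings, moderations, the 2 strains alone, a replicate block and leaving out each library. Aligning medians over tested genes and equal FPKM sums were chosen after seeing the data.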

Additional observations from a re-analysis of the deposited data

How the results depend on the processing

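In mutant against wild type, the count at an adjusted p under 0.05 was 7 (5 higher, 2 lower) as reported and 7 without each library in turn. It was 6 (5 higher, 1 lower) with medians aligned over tested genes, 5 (all higher) after quantile normalization and 7 (all higher) with equal FPKM sums. Members past a difference of 1 there numbered 0, and 1 with no minimum FPKM, 1 with medians aligned over tested genes, 3 after quantile normalization and 5 with equal FPKM sums. In rescued strain against mutant they numbered 2, and 1 with a pseudocount of 5, 4 after quantile normalization and 5 with equal sums. In rescued strain against wild type, the count of 4 at an adjusted p under 0.05 was 2 to 3 without each library in turn, 2 with medians aligned over tested genes, 2 in the fit of the 2 strains alone and 1 with equal sums. Directions turned in a few values. With equal sums, ACK2 and LDH1 were at 0.43 and 0.28 in mutant against wild type and at -0.49 and -0.42 in rescued strain against mutant, where quantile normalization gave -0.049 and -0.037. PFL1 in rescued strain against wild type was 0.075 after quantile normalization and 0.060 with equal sums, within its error. The cause was not tested. Of the 501 values of single genes under alternatives, 450 kept direction and side of the threshold, 39 lost a call and 4 gained one.

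The main fit treated cultures with the same replicate number as unpaired. In each strain replicate 3 had the highest sum of FPKM and the most genes at 0 (2547 in wild-type, 2005 in mutant and 2521 in rescued cells). Whether same-numbered cultures shared a batch was not tested further. Correlations of same-numbered libraries' deviations were -0.13 to 0.16, and not every one was above 0.1. With the number as a replicate block the counts at an adjusted p under 0.05 were 7, 5 and 3 in the 3 comparisons, against 7, 5 and 4 without it, and those past a difference of 1 stayed at 0, 2 and 0. Precision is limited by 3 libraries per strain and, for PFR1, by unknown depth.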
